A study of Mus musculus with 45 samples.

Results

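The histone genes of the mouse were followed through reprogramming of neural progenitor cells to induced pluripotent stem cells, in long-read RNA sequencing made from poly(A) RNA and from total RNA. Members were the genes whose symbol, or former symbol, places them among the clustered histone genes or the H1, H2A, H2B and H3 variant genes. By the symbols as deposited, 18 of 23575 genes qualified, and 69 qualified once former symbols were looked up in RefSeq. Of these 69, 53 were replication-dependent genes (5 H1, 16 H2A, 13 H2B, 9 H3 and 10 H4) and 11 were replacement genes. H2ax was kept apart from both classes, as were 3 pseudogenes and 1 name that joins H1f10 to a neighbouring transcript. Of the replication-dependent genes 41 lie on chromosome 13, 9 on chromosome 3, 2 on chromosome 11 and 1 on chromosome 6.

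Replication-dependent histone genes supply the bulk histones of newly copied DNA and are expressed in S phase. Their mRNAs are unusual among animal mRNAs in having no poly(A) tail: the transcript is cut just after a short stem-loop that is bound by the stem-loop binding protein SLBP. Replacement histone genes such as H3f3a, H3f3b and H2az1 make polyadenylated mRNAs through the whole cell cycle, and some replication-dependent genes are known to make a second, polyadenylated form in cells that have stopped dividing.

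The 45 libraries came from R1 embryonic stem cells, the clone R1-Clone3, the Oct4-GFP line O4G (R1 cells that carry green fluorescent protein under the Oct4 promoter) and neural progenitors derived from such stem cells. Wild-type (WT) neural progenitors (NPC) and NPC of the genotypes OKMS-Luciferase-AS and OKS-Luciferase-AS were kept in NPC medium, and the factor genotypes were then moved to serum medium with leukaemia inhibitory factor and doxycycline (FBS-LIF + dox) to induce Oct4, Klf4 and Sox2, with Myc in OKMS. These cells were collected at days 2, 4, 6, 10, 14, 18 and 20, and some at days 14, 18 and 20 after a change to 2i-LIF medium at day 6. WT NPC without factors were collected after 2 days in FBS-LIF + dox, and WT embryonic stem cells (ESC) were kept in 2i-LIF. Every factor line carries the luciferase construct. The labels do not say which replicates were separate cultures, so p-values measure the spread between these libraries, which may be technical.

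The library preparation came in 2 kinds. The 22 R9 libraries were made from poly(A)-selected RNA by direct cDNA sequencing on R9.4.1 flow cells. For the 23 R10 libraries the protocol states that total RNA entered reverse transcription without poly(A) selection, and the cDNA was amplified by PCR and sequenced on R10.4.1 flow cells; the reverse transcription primer is not given in the sources used here. The molecule field of the labels, by contrast, reads poly(A) RNA for all 45 libraries. Selection, PCR, kit and flow cell changed together between R9 and R10, so their shares in any difference cannot be told apart. Depth ran from 447990 to 1390424 reads assigned to genes in R9 and from 566599 to 4236442 in R10. Levels are given in CPM, reads scaled to a common total of reads assigned to genes.

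Within R10 the libraries fell into separate sets. The 10 libraries that carry a library name in their description (day 18 OKMS and OKS, day 18 2i-LIF OKMS and OKS, and the 6 stem cell libraries numbered n1 or n2) had summed replication-dependent levels of 1418 to 2727 CPM, with a median of 2361 CPM. The other 13 R10 libraries had 219.8 to 697 CPM, with a median of 392 CPM, and the sets did not overlap. The R1 stem cell library without an n number belongs to the second set and had 296 CPM. Among the R10 stem cell libraries it alone carries 2iL in its title. The named set lay wholly above the others for 13 of the 53 replication-dependent genes, beside 0.844% of all genes, and wholly below for 1 of the 11 replacement genes, Macroh2a1, beside 1.59% of all genes. Among genes of at least 1 CPM in 10 R10 libraries these shares were 1.33% and 2.48%, with 13 of 48 replication-dependent and 1 of 10 replacement genes. Mitochondrial genes took 1.56% to 2.35% of the reads in the named set, 0.124% to 1.64% in the other R10 libraries and 0.309% to 0.989% in R9. No NPC library is in the named set, so for the 6 numbered stem cell libraries the set and the cell state cannot be told apart. Only the R1 library without an n number shares the set of the NPC libraries, with 296 CPM against 333 to 416 CPM in R10 NPC. The R1 libraries n1 and n2, in the named set, had 2404 and 2411 CPM. The values of the main results are given for the sets apart.

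The labelled cell types carried their markers. The 6 stem cell markers Nanog, Zfp42, Esrrb, Dppa5a, Pou5f1 and Tdh summed to 12228 to 13613 CPM in R9 ESC and 11001 to 13551 CPM in R10 ESC, against 10.8 to 30.4 CPM in R9 NPC and 14.9 to 28.0 CPM in R10 NPC. The 6 neural progenitor markers (Fabp7, Nes, Pax6, Olig2, Ptn and Sox2) summed to 4493 to 7044 CPM in R9 NPC and 4943 to 6454 CPM in R10 NPC. In ESC the same markers summed to 143.9 to 151.7 CPM in R9 and 89.5 to 175 CPM in R10, and Olig2 was at 0 in all ESC libraries. The 5 proliferation markers (Mki67, Top2a, Ube2c, Birc5 and Ccnb1) summed to 1661 to 2024 CPM in R10 NPC and to 2550 to 2909 CPM in R10 ESC. In WT cells after 2 days in FBS-LIF + dox they summed to 22.1 and 32.1 CPM in R10 and to 19.8 CPM in R9.

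To show the element that sets the ends of these mRNAs apart, the 16-base stem-loop was searched in the sense strand of GENCODE M21 protein-coding transcripts as GG-NNN-TT-NNN-A-NNN-CC, with N any base and the outer N triplets pairing with each other. It was found in 225 of 58797 transcripts (0.383%), in 46 of 67 genes with a Hist symbol, in 38 of the 53 replication-dependent members, in H2ax and in 1 replacement member, H2bfm, which holds 2 copies. Only GENCODE transcript sequence and the bases just after deposited transcript ends were searched, so a loop elsewhere could not be found. The GENCODE entry of H2ac13, for example, stops at 21716814, while its deposited transcripts run to 21717459. Members without a match were thus not shown to lack the loop. The form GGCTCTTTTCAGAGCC was present in 23 member genes. The sequences below are those of the members that carry the results, 5′ to 3′, with the stem-loop in capitals and its mm10 position and strand after the gene.
H1f4 (former Hist1h1e), chr13:23621782-23621797, minus: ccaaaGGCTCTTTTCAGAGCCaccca
H1f5 (former Hist1h1b), chr13:21779837-21779852, minus: ccaaaGGCTCTTTTCAGAGC
H2ac4 (former Hist1h2ab), chr13:23751572-23751587, plus: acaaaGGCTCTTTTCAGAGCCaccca
H2ac20 (former Hist2h2ac), chr3:96220418-96220433, minus: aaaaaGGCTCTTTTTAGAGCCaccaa
H3c3 (former Hist1h3c), chr13:23745047-23745062, minus: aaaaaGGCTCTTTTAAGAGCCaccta
H2bc12 (former Hist1h2bk), chr13:22036300-22036315, plus: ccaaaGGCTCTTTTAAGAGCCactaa
H1f2 (former Hist1h1c), chr13:23739512-23739527, plus: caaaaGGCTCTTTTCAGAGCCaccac
H2bc8 (former Hist1h2bg), chr13:23571843-23571858, plus: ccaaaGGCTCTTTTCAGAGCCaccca
H4c9 (former Hist1h4i), chr13:22040966-22040981, minus: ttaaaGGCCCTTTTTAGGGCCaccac
H2aw (former Hist3h2a), chr11:58955172-58955187, plus: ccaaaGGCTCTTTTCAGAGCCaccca
H2ax (former H2afx), chr9:44335240-44335255, plus: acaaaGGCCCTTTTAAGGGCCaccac
Hist1h2ao, chr13:21810898-21810913, plus: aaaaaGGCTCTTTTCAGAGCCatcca
The window for H1f5 stops early because it was read from the bases that follow a deposited transcript end, and the last base of its loop is outside it. Genes far lower in R9 than in R10 (H1f4, H1f5, H2ac20) and genes whose levels differed little between preparations (H1f2, H2aw) carry stem-loops of the same or nearly the same letters.

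To ask how the preparation bears on each class, R9 and R10 were compared over the 12 conditions present in both. The linker histones H1f4 and H1f5 and several H2A and H3 genes were far lower in poly(A) RNA, whereas the replacement genes H3f3a (log2 difference -0.34), H3f3b (-0.17) and H2az1 (0.00) differed little. Of 50 members tested 20 were called (4 higher and 16 lower in R9), beside 12.1% of all genes tested (5.73% higher and 6.36% lower). In the replication-dependent class 1 of 37 tested genes was higher and 16 were lower, with a median log2 difference of -0.92 against -0.03 over all genes. In the replacement class 2 of 10 were higher and none was lower, with a median of -0.08. The filter asks for 1 CPM in as many libraries as R9 has in these conditions, so a gene near 0 in R9, such as H1f4, could enter through R10 alone. The replication-dependent counts and median are thus drawn in part from genes kept because they were high in R10. Over all libraries, 25 of the 53 replication-dependent genes had a mean of at least 1 CPM in R9 and 49 did in R10, and 6 against 23 had at least 10 CPM. Over the 13 R10 libraries without a library name the counts were 39 and 8, so most of the excess at 10 CPM came from the named set.

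Lowest, median and highest levels are over all 22 R9 and 23 R10 libraries, and differences are from the shared conditions. H1f4, a linker histone, ranged from 0 to 1.65 CPM in R9 with a median of 0, and from 11.9 to 566 CPM in R10 with a median of 68.9 CPM. The ranges did not overlap, and the difference was -5.22 ± 0.34 on the log2(CPM + 1) scale (SE; limma, adjusted p = 2.1e-12). H1f5, another linker histone, had a lowest, median and highest level of 0, 1.07 and 4.31 CPM in R9 and of 0, 61.4 and 910.5 CPM in R10. Its log2 difference was -4.81 ± 0.56 (limma, adjusted p = 1.1e-07). The ranges of H1f5 overlapped only through the 2 R10 libraries of WT cells after 2 days in FBS-LIF + dox. The pooled medians join unlike sets. In the R10 libraries without and with a library name the medians were 32.5 and 308 CPM for H1f4 and 39.4 and 762 CPM for H1f5.

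The core histone genes lower in R9 followed the same form. H2ac20 had a median of 0 CPM in R9 and 13.2 CPM in R10 (log2 difference -2.85 ± 0.48, limma adjusted p = 2.4e-05). H2ac13 had medians of 0.993 and 11.5 CPM (-2.35 ± 0.40), and H3c6 of 0 and 4.67 CPM (-2.14 ± 0.31). These pooled medians join unlike sets: the medians were 7.01 CPM for H2ac20, 5.32 CPM for H2ac13 and 3.19 CPM for H3c6 in the 13 R10 libraries without a library name, and 133 and 64.0 CPM for H2ac20 and H2ac13 in the named ones, where H3c6 ran from 22.9 to 56.4 CPM. H1f1, H1f3 and H2ac4 were lower too, with log2 differences of -2.06, -2.05 and -1.88. H1f3 ran from 0 to 4.14 CPM in R9, from 0 to 7.95 CPM in the other R10 libraries and from 51.1 to 111 CPM in the named ones. Without the numbered stem cell libraries H2ac13 (-1.75), H3c6 (-1.75), H1f1 (-1.66) and H1f3 (-1.39) were still called. For H2ac4 the gap lay in the named libraries: it ran from 0 to 4.31 CPM in R9, from 0 to 5.71 CPM in the other 13 R10 libraries and from 159 to 247 CPM in the named ones, and without the numbered stem cell libraries its log2 difference was -0.82 and not called.

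A second group of replication-dependent genes did not show this gap between poly(A) RNA and total RNA. H2bc4, an H2B gene, ran from 17.0 to 497 CPM in R9 (median 56.2 CPM) and from 17.6 to 326 CPM in R10 (median 39.4 CPM), a log2 difference of 0.38 ± 0.16 that did not pass the test. H2aw had medians of 27.1 and 17.8 CPM (0.07 ± 0.12), and H1f2 of 14.3 and 20.2 CPM with a log2 difference of -0.29. These ranges overlapped almost fully, which makes the 3 genes unlike H1f4 and H1f5 although all are filed as replication-dependent. The H2B gene H2bc21 and the H4 gene H4f16 stayed at or under 5.72 CPM in every library.

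The members higher in R9 were Hist1h2ao, H3f3c, H1f10 and the pseudogene H3f3a-ps2. Hist1h2ao ran from 8.49 to 1118 CPM in R9 (median 424 CPM) and from 0 to 11.9 CPM in R10 (median 4.67 CPM), with a log2 difference of 5.73 ± 0.30 (limma, adjusted p = 2.4e-14). H3f3c, a further H3.3 gene copy on chromosome 2, ran from 56.8 to 235 CPM in R9 and from 0 to 3.95 CPM in R10 (5.56 ± 0.14, adjusted p = 1.3e-20). H1f10 had medians of 23.1 and 2.61 CPM (2.90 ± 0.21), and H3f3a-ps2 of 30.2 and 3.53 CPM (2.82 ± 0.21). Hist1h2ao alone made up 1.33% to 91% of the replication-dependent sum in R9, with a median of 72.4%, so sums for R9 are given below without it. Copies of the H2A and H3.3 genes are near-identical, and how the authors' counting shared reads between them is not given in the sources used here.

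**Figure D1:**
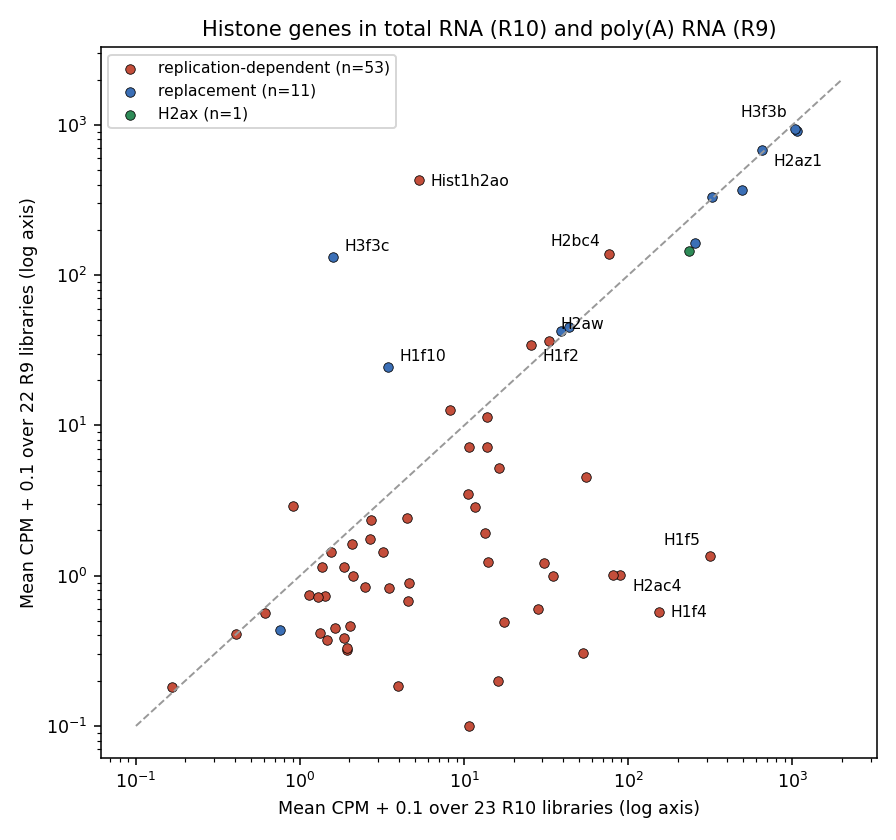
Mean level of each histone gene over the R9 libraries (vertical, CPM + 0.1, log axis) against the R10 libraries (horizontal, CPM + 0.1, log axis); each point is a gene and the dashed line marks equal levels. Most replacement genes lie near the line, H1f4, H1f5 and H2ac4 (the last through the named R10 libraries) lie far below it, H2bc4, H2aw and H1f2 lie near it, and Hist1h2ao and H3f3c lie far above it.

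The size of the preparation effect moved with the named R10 set. Without the numbered stem cell libraries 12 members were called (4 higher, 8 lower), beside 12.4% of all genes, and H1f4 and H1f5 were still lower in R9 (log2 differences -4.67 ± 0.24 and -3.94 ± 0.39). Without all ESC and NPC conditions 10 were called, 4 higher and 6 lower, beside 13.7% of all genes. Of the genes that process histone mRNA or deposit histones, Sympk (1.17) and Asf1a (1.56) passed the test in this comparison, and none of the 15 S phase genes did.

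The deposited transcript models, pooled over all libraries, give the annotated ends of these genes. A TPM weighs the models and does not show where the reads of a library ended. Shares of TPM by end can move with the levels of single genes as well as with the ends used, and these were not told apart. Leaving out Hist1h2ao, the replication-dependent genes had 126 transcripts in 52 genes. Models with a canonical poly(A) signal (AATAAA or ATTAAA) near the end took 62.5% of the summed TPM, the transcript counterpart of CPM, in R9 and 9.49% in R10. By library, the share had a median of 58.8% in R9 (21% to 81.1%), 20.6% in the R10 libraries without a library name (12.4% to 62.4%) and 5.51% in the named R10 libraries (4.69% to 13.3%). For the replacement genes the canonical share was 56.2% in both preparations. These are shares of TPM with no test.

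The TPM shares of ends relative to the stem-loop differed between library sets as well. Pooled over libraries, models ending more than 50 bases beyond the loop took 43.9% of the TPM in R9 and 17.7% in R10, and models ending before or within it took 4.80% and 27.2%. Models ending up to 50 bases beyond took 22% and 27.2%. Models of genes for which no loop was found in the searched bases took 29.1% and 24.2%. By library, the share ending more than 50 bases beyond had a median of 41.6% in R9 (13.4% to 70.3%), 34.4% in the R10 libraries without a library name (19.1% to 83.9%) and 12.7% in the named ones (10.2% to 25.7%). Most of the pooled gap thus lay in the named set, and the ranges of R9 and the other R10 libraries overlapped widely. The share ending before or within the loop had medians of 5.34%, 18.8% and 28.6% in the same order. Single-exon models took 72.5% of the TPM in R9 and 98.6% in R10, with medians by library of 81.9%, 96.6% and 98.8%.

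The leading models of single genes ended at different places. The main H1f5 model, of 768 bases, ended at -21 relative to the last base of the loop, with a mean of 1.30 TPM in R9, 96.5 TPM in the R10 libraries without a library name and 1505 TPM in the named ones. The main H2ac20 model (482 bases) ended 6 bases beyond its loop, with 0.996, 31.4 and 392 TPM in the same order. The H2ac4 model (534 bases) ended 24 bases beyond, with 3.03, 8.37 and 654 TPM, so its contrast between preparations was nearly all in the named set.

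Several genes seen in poly(A) RNA had main models that ran further past the loop, although H2bu2 was higher in the R10 libraries without a library name than in R9.
For H4c9 the main model (728 bases) ended 330 bases beyond the loop after an ATTAAA signal, with 40.8 TPM in R9 and 30.6 and 12.4 TPM in the R10 sets in the same order. For H2aw it ended 403 bases beyond, with 33.4, 28.7 and 5.07 TPM, and for H2bu2 it ended 169 bases beyond after an AATAAA signal, with 24.6, 50.5 and 15.3 TPM. The main H2bc8 model ended 1666 bases beyond the loop and the H1f2 model in R9 836 bases beyond, both after AATAAA. In R10 the leading H1f2 model was another one, which ended at -208, before the loop.

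Other genes did not follow this split. The leading H2bc4 model had 3 exons, with 44.0 TPM in R9 and 1.98 TPM over all R10 libraries. No stem-loop was found for H2bc4 in the searched bases. The leading H4c8 model ended 49 bases beyond its loop, with 22.5 and 8.60 TPM. The main H1f4 model ended 62 bases beyond the loop and had 0.913 TPM in R9, against 84.2 and 616 TPM in the R10 sets. The H3c6 model ended 765 bases beyond its loop after ATTAAA, yet had 0.666 TPM in R9 and 5.22 and 49.9 TPM in the R10 sets.

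The models behind the genes higher in R9 had an unusual form. Hist1h2ao (chr13:21810465-21810944, plus strand, mm10) had 127 models, and none was a single exon or had a canonical signal. Of these, 126 ended before or within the loop and held 99.5% of the gene's R9 TPM, and the summed level had a median of 968 TPM in R9 and 10.0 TPM in R10. Their first exon lay on the opposite strand of another H2A gene: Hist1h2an in 75 models (61.0% of the R9 TPM, introns of 91 to 23864 bases), H2ac14 in 31 (21.6%, introns of 32029 to 89267 bases) and H2ac15 in 21 (17.4%, introns of 33242 to 57245 bases). For H3f3c (chr2:119665626-119666036, minus strand) the first exon of 86 of 114 models lay opposite Gm14383, and these held 84.7% of its R9 TPM. In the other 28 models (15.3%) the first exon lay in no annotated gene. Models that join a histone gene to the other strand of a near-identical copy were thus the source of the Hist1h2ao values, and every H3f3c model started outside that gene. How these models arose was not tested, and the levels of both genes are reported as uncertain.

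Between ESC and NPC in R10, most changed replication-dependent genes were higher in stem cells, led by H2A and H1 genes, while H2aw, H2bu2, H1f0 and Macroh2a1 were lower. Of 62 members tested 32 were called (25 higher, 7 lower), beside 45.8% of all genes tested (22.4% higher and 23.5% lower). In the replication-dependent class 23 of 48 were higher and 5 lower, with a median log2 difference of 1.06 against 0.01 over all genes, and in the replacement class 1 of 11 was higher and 2 were lower, with a median of -0.42. H2bc15, with 0 reads in the NPC libraries, passed the filter through ESC alone. The replication-dependent counts and median are thus drawn in part from genes kept because they were high in ESC. For all 23 higher genes the 6 numbered stem cell libraries lay above the 4 NPC libraries, whereas the R1 library without an n number lay above the NPC range for 9, within it for 12 and below it for 2. Set alone against the NPC libraries, with the spread taken from NPC only and so with less power, it gave 5 calls (H1f0, H2aw and H2bu2 lower, H2bfm and H3c4 higher), beside 29.1% of all genes. The numbered libraries alone gave 34, beside 47.4%.

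H1f5 was at 58.4, 59.6, 39.4 and 61.4 CPM in the NPC libraries (OKMS, OKS, WT 2, WT 3) and at 749, 784, 910.5, 909, 699 and 776 CPM in the numbered ESC libraries, but at 47.8 CPM in the R1 library without an n number. The fitted log2 difference over all 7 ESC libraries was 3.29 ± 0.62 (limma, adjusted p = 0.00021). H2ac4 was at 2.34 to 5.71 CPM in NPC, 181 to 247 CPM in the numbered ESC libraries and 1.49 CPM in the R1 library without a number (4.43 ± 0.96, adjusted p = 0.00073). The unnumbered library lay within or near the NPC range for both genes, so the groups overlap once it is counted.

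The same order of libraries held for Hist1h2an (4.09 to 11.8 CPM in NPC, 185 to 299 CPM in the numbered ESC libraries, 4.11 CPM in the unnumbered one, log2 4.12 ± 0.85) and H1f3 (3.08 to 4.02, 63.6 to 107 and 4.11 CPM, log2 3.50 ± 0.60). H2bc18, an H2B gene, had 0.318 to 1.76 CPM in NPC, 22.5 to 37.1 CPM in the numbered libraries and 0.747 CPM in the unnumbered one (3.24 ± 0.64). H2ac20 differed from these in that the unnumbered library, at 26.9 CPM, lay above the NPC range of 7.01 to 19.4 CPM, with 115 to 184 CPM in the numbered ones (3.36 ± 0.43). H1f4 had a log2 difference of 1.93 ± 0.51, with 43.2 to 75.2 CPM in NPC and 257 to 362 CPM in the numbered libraries, but 32.5 CPM in the unnumbered one, below all NPC libraries (-0.85 with that library alone). H1f1 had one of 2.32 ± 0.32, with 3.08 to 11.8 CPM in NPC, 23.3 to 36.5 CPM in the numbered libraries and 13.8 CPM in the unnumbered one. H4c8, an H4 gene, ran from 3.51 to 6.99 CPM in NPC, 14.4 to 23.6 CPM in the numbered ESC libraries and 3.73 CPM in the unnumbered one (1.43 ± 0.36). H1f2 (1.33, adjusted p = 0.051) and H2bc4 (-0.18) did not pass.

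H2aw, H2bu2 and H1f0, lower in stem cells, did not depend on the library set in this way. H2aw was at 25.9, 24.5, 33.0 and 38.7 CPM in NPC, at 4.41 to 12.2 CPM in the numbered ESC libraries and at 5.23 CPM in the unnumbered one, with a log2 difference of -2.01 ± 0.27 (limma, adjusted p = 7.4e-06). Its neighbour H2bu2, an H2B gene, fell from 8.18 to 18.9 CPM in NPC to 0.896 to 3.48 CPM in the numbered libraries and 1.12 CPM in the unnumbered one (-2.39 ± 0.30, adjusted p = 3.4e-06). H1f0, the linker histone that builds up in differentiated cells, was at 73.4, 68.9, 72.7 and 53.7 CPM in NPC and at 18.9 to 30.6 CPM in all 7 ESC libraries (-1.49 ± 0.17, adjusted p = 1.3e-06). For these 3 genes the ESC and NPC ranges did not overlap.
H2bc21 (-1.55 ± 0.24), H2ac14 (-1.26 ± 0.26) and Hist1h2ao (-1.11 ± 0.39) were also lower, from NPC levels of 9.85 CPM or less. Hist1h2ao did depend on the set: at 10.8 CPM the unnumbered library lay above all NPC libraries, and its difference alone was 0.19. Macroh2a1, which codes for the macroH2A1 variant, had 516 to 1149 CPM in NPC and 158 to 268 CPM in the numbered ESC libraries, but 1002 CPM in the unnumbered one (-1.54 ± 0.40, adjusted p = 0.0031). H2bfm was at 0 in the 4 NPC libraries, which allows up to 1.75 CPM, and at 0 to 1.94 CPM in ESC, so its call is near the limit of the depth.

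Summed by type, with near-identical copies pooled, the R10 levels showed the same split. H1 genes summed to 117 to 156 CPM in NPC, 1096 to 1440 CPM in the numbered ESC libraries and 99.3 CPM in the unnumbered one. H2A genes summed to 83.0 to 142 CPM, 708 to 924 CPM and 91.5 CPM in the same order, and H2B genes to 78.6 to 90.8 CPM, 118 to 129 CPM and 41.8 CPM. H4 was the only type in which all 7 ESC libraries (22.8 to 82.7 CPM) lay above all 4 NPC libraries (18.4 to 21.6 CPM). With TPM in place of CPM the H4 groups overlapped.

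**Figure D2:**
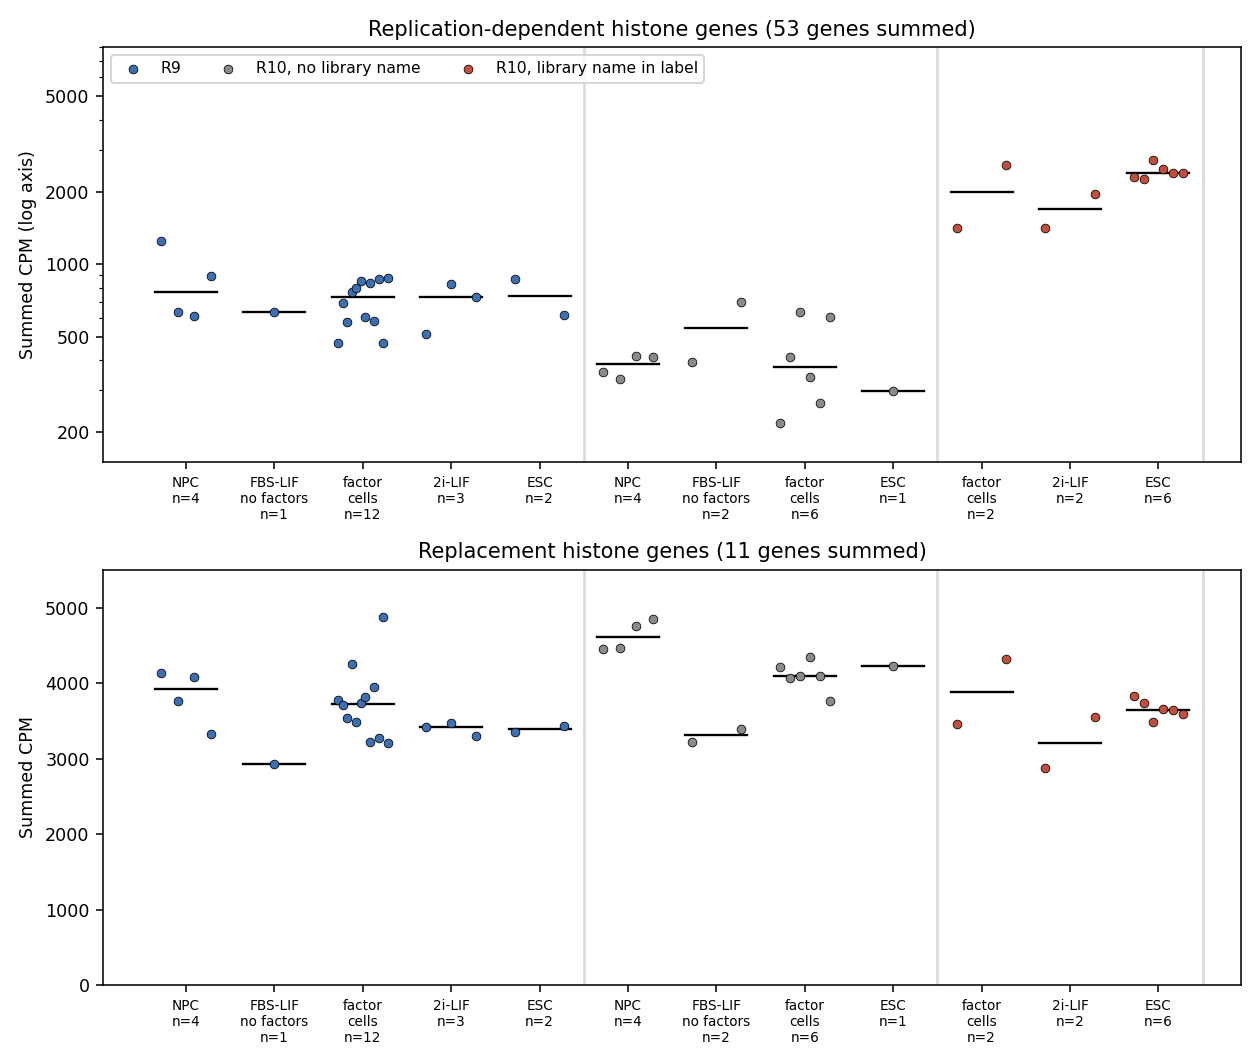
Summed CPM of the replication-dependent genes (top, log axis) and the replacement genes (bottom, linear axis from 0) in each of the 45 libraries, grouped by preparation, R10 library set and cell state. Points are libraries and bars are medians. The sums at the top include Hist1h2ao, whose level is uncertain: over R9 the median was 710 CPM with it and 170 CPM without it. Replication-dependent sums are 1418 to 2727 CPM in the named R10 set and 219.8 to 697 CPM in the other R10 libraries, whereas replacement sums lie between 2874 and 4874 CPM throughout.

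Among the genes of histone supply in R10, 10 of 15 S phase genes were higher in ESC and none was lower (median log2 difference 1.12), beside 22.4% of all genes higher and 23.5% lower. Of 13 histone mRNA processing genes 2 were higher and 1 lower, and of 19 chaperone genes 2 were higher and 1 lower. These shares were not above those of all genes. Cdt1, which licenses replication origins, was higher by 2.00 ± 0.16, Pcna, the replication clamp, by 1.01 ± 0.18, and the chaperone Nasp by 1.45 ± 0.17. Zfp473, which takes part in histone mRNA 3′ end processing, was higher by 3.35 ± 0.27 and Casp8ap2 by 1.17 ± 0.23, whereas Eri1, an exonuclease that trims histone mRNA ends, was lower (-1.16 ± 0.23). Slbp (0.76) and Npat (0.22), the stem-loop binder and the histone gene activator, and the CAF-1 subunits Chaf1b (0.72) and Chaf1a (-0.23) were not called, nor was the chaperone Asf1b (0.29). With the unnumbered R1 library alone, 7 of 15 S phase genes were called higher and none lower (median 0.72), Cdt1 (1.30) and Zfp473 (2.80) among the pathway genes still called, whereas Pcna (0.27), Nasp (0.82), Casp8ap2 (0.18) and Eri1 (-1.07) were not. Reads are from whole cultures, in which a change in the share of cells in S phase and a change in RNA per cell cannot be told apart.

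In R9 no replication-dependent gene was called higher in stem cells than in NPC by the main test, and 1, H3c3, was with median centring. Of 43 members tested 9 were called (2 higher, 7 lower), beside 36% of all genes (17.6% higher and 18.4% lower). The class counts were 0 higher and 5 lower of 29 replication-dependent genes (median log2 difference -0.36, against -0.07 over all genes) and 1 higher and 2 lower of 10 replacement genes (median -0.16). At an unadjusted p under 0.05, 1 replication-dependent gene was higher (H3c3, 1.23) and 6 were lower. H3c3 was at 10.4 and 7.45 CPM in ESC against 1.34 to 5.06 CPM in NPC, and the H3 genes summed to 12.1 and 14.2 CPM against 5.06 to 9.42 CPM, without overlap. The H1, H2B and H4 sums were lower in ESC, also without overlap. H1 genes summed to 2.79 and 2.84 CPM against 9.36 to 16.2 CPM in NPC. H2B genes summed to 27.9 and 32.2 CPM against 58.8 to 89.4 CPM, and H4 genes to 1.86 and 5.68 CPM against 6.75 to 15.5 CPM. The H2A sums, which include Hist1h2ao, overlapped. With median centring 10 members were called, 4 being higher and 6 lower, beside 3219 higher and 2636 lower calls among all 15746 genes tested. By edgeR 9 members were called (3 higher, 6 lower) and by DESeq2 8 (3 higher, 5 lower). All-gene shares for these tools are not given here, so their counts show only how the calls moved.

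S phase genes were higher in R9 ESC as well, 9 of 15 with 1 lower, among them Cdt1 (2.05 ± 0.16) and Mcm3 (1.73 ± 0.17). Nasp was higher by 1.12 ± 0.18, and Slbp (0.86 ± 0.14) was under the fold threshold.

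H2aw was again lower in ESC, at 7.57 and 5.58 CPM (O4G, R1) against 25.4, 34.8, 28.3 and 23.6 CPM in NPC (WT 1, WT 2, OKMS, OKS), a log2 difference of -1.94 ± 0.25 (limma, adjusted p = 0.0013). H2bc4 was at 17.0 and 18.6 CPM against 29.4, 33.9, 56.5 and 77.6 CPM (-1.31 ± 0.41, adjusted p = 0.04), and H1f2 at 1.89 and 0.931 CPM against 4.01 to 10.1 CPM (-1.84 ± 0.43, adjusted p = 0.015). The groups did not overlap for these 3 genes, none of which was called between poly(A) RNA and total RNA. H4c9 and H1f5 were called lower too, but both ESC libraries were at 0, which allows up to 2.84 CPM, and NPC were at 2.69 to 6.75 CPM for H4c9 and 0.968 to 2.69 CPM for H1f5.

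The H3.3 gene H3f3a had 465.8 and 539.8 CPM in R9 ESC against 867 to 1130 CPM in NPC (-1.002 ± 0.13, limma adjusted p = 0.0015). It was not called with median centring. The level of H3f3c, uncertain as said above, was 56.8 and 67.0 CPM against 129 to 235 CPM (-1.40 ± 0.26). H3f3b did not show this: its R9 levels of 779 and 819 CPM in ESC fell within the NPC range of 707 to 989 CPM. In R10 H3f3a had a log2 difference of -0.42 ± 0.11, under the fold threshold. H2ax, which is phosphorylated at DNA breaks, was higher in ESC in both preparations: 289 and 317 CPM against 67.8 to 114 CPM in R9 (1.70 ± 0.22, adjusted p = 0.0013), and 246 to 499 CPM against 156 to 172 CPM in R10 (1.16 ± 0.17, adjusted p = 2.1e-05). Macroh2a1, lower in the numbered R10 ESC libraries, was higher in R9, with 739 and 694 CPM in R9 ESC against 267 to 376 CPM in NPC (1.12 ± 0.15, adjusted p = 0.0016).

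The difference between the ESC-NPC contrasts of R10 and R9 was tested in a joint fit. Of 64 members 10 were called, beside 3.63% of all genes: 9 of 49 replication-dependent genes had a positive difference, R10 minus R9 (1.35% of all genes), and none a negative one (2.28%), and 1 of 11 replacement genes, Macroh2a1, had a negative one (-2.66 ± 0.75, adjusted p = 0.017). The 9 were H2ac4 (5.26 ± 1.46), H1f5 (4.67 ± 0.91), H1f3 (3.80), H1f2 (3.16), H2ac20 (2.90), H2bc15 (2.65), H4c9 (2.57 ± 0.46), H1f1 (2.39) and H4c14 (1.95). For 7 of the 9 (H2ac4, H1f5, H1f3, H2ac20, H2bc15, H1f1 and H4c14) every R9 ESC and NPC library held 0 to 2 reads. Counts this low can hardly show a difference, so these calls carry mainly the R10 levels and do not compare the preparations. H4c9 was at 3.06 to 7.75 CPM in R10 ESC and 3.18 to 5.26 CPM in R10 NPC, which overlap, and its difference came from R9, with 0 reads in both ESC libraries and 2 to 5 in NPC. H1f2 had 1 and 2 reads in R9 ESC and 3 to 8 in R9 NPC. With the R1 library without an n number as the only R10 stem cell library none was called by limma (6 at an unadjusted p under 0.05), and edgeR called none over all libraries, DESeq2 3. Leaving out 1 library at a time gave 1 (without the R9 R1 ESC library) to 25 calls (without the unnumbered R10 R1 library).

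WT NPC moved to FBS-LIF + dox without factors showed changes in both directions among the replication-dependent genes. H1f2, H2bc4, H4c9, H2aw and H2bc8 rose after 2 days, while H1f5, H2bc12, H3c3, H2ac11 and the variants H2az1 and H2ax fell. In R10 31 of 54 members were called (7 higher, 24 lower), beside 26.8% of all genes (14.9% higher and 11.9% lower). In the replication-dependent class 7 of 40 were higher and 21 lower, with a median log2 difference of -1.57 against 0.12 over all genes, and in the replacement class none of 10 was higher and 2 were lower. The filter could be passed through a single group: H2ac11, with 0 reads in FBS-LIF + dox, entered through NPC alone. H2ac19, under 1 CPM in NPC, entered through FBS-LIF + dox alone. The replication-dependent counts and median are thus drawn in part from genes kept because they were high in a single group.

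H2bc4 was at 32.1 and 27.8 CPM in NPC and at 129 and 326 CPM in FBS-LIF + dox (log2 2.74 ± 0.45, limma adjusted p = 0.011), and in R9 at 29.4 and 33.9 CPM against 372 CPM. H1f2 was at 3.49 and 3.16 CPM against 24.3 and 45.5 CPM (2.99 ± 0.42, adjusted p = 0.0072), and in R9 at 4.01 and 7.74 CPM against 75.0 CPM. H2aw was at 33.0 and 38.7 CPM against 121 and 147 CPM (1.87 ± 0.23, adjusted p = 0.0049), and in R9 at 25.4 and 34.8 CPM against 79.2 CPM. In both preparations the FBS-LIF + dox libraries lay above the WT NPC libraries for all 3 genes.
H4c9 rose from 3.18 and 3.44 CPM to 13.3 and 30.3 CPM (2.30 ± 0.49) and H2bc8 from 4.76 and 3.16 CPM to 13.7 and 21.7 CPM (1.90 ± 0.42). H2bc6 (1.96) and H2ac19 (1.59) also rose, from under 1 CPM. The stem-loops of H1f2, H4c9, H2aw and H2bc8 are printed above, and the leading R9 models of these 4 genes end beyond them. This was not particular to genes that rose. Of the genes that fell, the leading R9 models of H2bc12 and H3c3 ended 45 and 6 bases beyond the loop, and those of H1f5 and H2ac11 before or within it. In R10 the leading H1f2 model ended at -208, before the loop.

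Of the genes that fell, H1f5 went from 39.4 and 61.4 CPM to 2.35 and 0 CPM (log2 -4.78 ± 0.65, adjusted p = 0.0064), H2bc12 from 27.0 and 23.8 CPM to 0 and 0.659 CPM (-4.36 ± 0.44) and H3c3 from 25.4 and 16.9 CPM to 0.391 and 0 CPM (-4.21 ± 0.44). H2ac11 fell from 20.0 and 13.8 CPM to 0 in both libraries, which allow up to 1.17 CPM. H2ac20 fell by 3.48, Hist1h2ao by 3.39 and H1f4 by 1.84 on the log2 scale. Among the variants H2az1, which codes for H2A.Z, went from 804 and 908 CPM to 81.8 and 94.2 CPM (-3.27 ± 0.21, adjusted p = 0.0013), with 776 and 719 CPM against 124 CPM in R9. H2ax went from 165 and 156 CPM to 17.6 and 21.4 CPM (-2.98 ± 0.23, adjusted p = 0.0018) and H1f0 from 72.7 and 53.7 CPM to 31.7 and 25.0 CPM (-1.12 ± 0.28). The H3.3 genes stayed near their NPC levels: H3f3a at 997 and 1322 CPM against 1017 and 1303 CPM, and H3f3b at 739 and 797 CPM against 903 and 896 CPM.

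**Figure D3:**
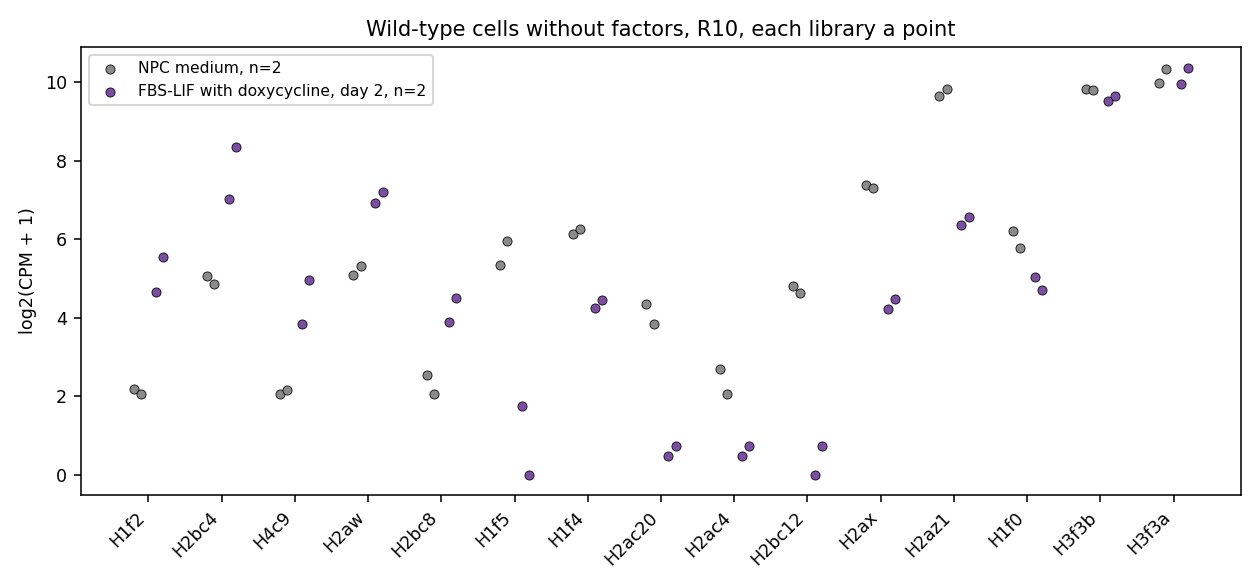
Levels of 15 histone genes on the log2(CPM + 1) scale in WT cells in NPC medium (grey, n = 2) and after 2 days in FBS-LIF with doxycycline (purple, n = 2), R10; each point is a library. H1f2, H2bc4, H4c9, H2aw and H2bc8 are higher in FBS-LIF with doxycycline, H1f5, H2ac20, H2bc12, H2ax and H2az1 are lower, and H3f3a and H3f3b lie at similar levels.

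S phase genes fell in the same cells, as did some genes of histone supply. All 15 S phase genes were lower, with a median log2 difference of -3.45, led by the ribonucleotide reductase subunit Rrm2 (-5.93 ± 0.27), with Pcna at -1.67 ± 0.33. Slbp was lower by 1.73 (-1.73 ± 0.23), Eri1 by 1.86 (-1.86 ± 0.30) and the cleavage factor gene Cpsf2 by 1.16 (-1.16), which made 3 of 12 processing genes. Among 19 chaperone genes 7 were lower and none was higher, including Chaf1b (-4.86 ± 0.33), Asf1b (-4.52 ± 0.41), Nasp (-2.83 ± 0.28) and Chaf1a (-2.35 ± 0.47); Npat (0.40) and Casp8ap2 (-0.45) were not called. The 4 astrocyte markers (Gfap, Aqp4, S100b, Aldh1l1) summed to 1188 and 3057 CPM in the R10 FBS-LIF + dox libraries against 42.6 to 181 CPM in R10 NPC. In R9 the gap was smaller, with 265 CPM in the FBS-LIF + dox library against 72.2 to 135 CPM in NPC. The neural progenitor markers summed to 2840 and 5667 CPM in the R10 FBS-LIF + dox libraries. The part of these markers in the histone changes was not tested. With NPC WT replicate 3 left out 6 members were called, beside 8.89% of all genes, and with NPC WT replicate 2 left out 7, beside 9.71%.

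During factor-driven reprogramming the OKS libraries carried more of the H2B gene H2bc4 and of H1f2 than the OKMS libraries of the same day, except at day 20. Over the 6 R9 days in FBS-LIF + dox (2, 4, 6, 10, 14, 20), with day as a block, 8 of 40 members were called (1 higher and 7 lower in OKMS), beside 18% of all genes (6.93% higher and 11% lower). This split depends on the scaling: with median centring 3 members were higher (H2ax, H3c8 and Hist1h2ao) and 4 lower (H1f2, H2bc4, H2bc8 and H4c9), and the share of higher calls over all genes went from 38.6% to 53.8%. The centring moved the all-gene median from -0.11 to 0.05. All 7 lower genes of the first count were replication-dependent, of 27 tested (median log2 difference -0.38, against -0.11 over all genes), and no replacement gene of 10 was called. Each line gave 1 library per day, so the days stand in for replicates and the errors measure how the gap varied between days. Factor set and line cannot be told apart.

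H2bc4 was at 215, 45.9, 55.9, 63.3, 49.6 and 87.4 CPM in OKMS and at 379.7, 397, 497, 263, 258 and 32.3 CPM in OKS on those days, from 56.5 and 77.6 CPM in the NPC of each line. OKS was higher on 5 of 6 days and lower at day 20, and the difference was -1.67 ± 0.46 (limma, adjusted p = 0.016). H1f2 was at 52.0, 18.8, 16.4, 23.9, 24.3 and 12.3 CPM in OKMS and at 68.2, 141, 71.0, 107, 84.4 and 10.8 CPM in OKS (-1.50 ± 0.34, adjusted p = 0.0074), from 9.42 and 10.1 CPM in NPC. H2bc8 was at 26.0, 2.09, 2.73, 4.22, 1.06 and 2.46 CPM in OKMS and at 34.8, 45.8, 32.1, 24.5, 35.6 and 3.59 CPM in OKS (-2.39 ± 0.52, adjusted p = 0.0056). At day 20 the OKS values of all 3 genes had dropped to the range of the OKMS libraries or below it.
H3c15 (-1.79), H4c9 (-1.30), H1f5 (-1.24) and H2aw (-1.08) were the other genes lower in OKMS. The H1f5 call rests on 0 or 1 reads in each R9 OKMS library and 1 to 6 in each OKS library, near the floor of 3 reads, and in R10 its difference was 0.64 (not called), with 37.1 and 11.6 CPM at day 2, 59.2 and 16.2 CPM at day 6, and 282 and 790.0 CPM at day 18 in OKMS and OKS. H2ax was the member higher in OKMS: 82.5, 98.1, 153, 169, 219 and 218 CPM, against 54.8, 35.3, 24.1, 33.5, 68.7 and 354 CPM in OKS (1.32 ± 0.34, adjusted p = 0.013). H2az1 (0.79), Hist1h2ao (0.91) and Macroh2a1 (0.68) were under the fold threshold. The replication-dependent sum without Hist1h2ao was 443, 129, 164, 197, 175 and 227 CPM in OKMS and 671, 777, 786, 560.0, 514 and 177 CPM in OKS over the same days.

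Among pathway genes 11 of 15 S phase genes were higher in OKMS (median log2 difference 1.49), among them Cdt1 (2.10 ± 0.33) and Ccne1 (1.98 ± 0.27), as were 5 of the chaperone genes, including Nasp (1.38 ± 0.22), Chaf1b (1.32 ± 0.37) and Chaf1a (1.07 ± 0.35), with Slbp at 0.91 ± 0.25 and Pcna at 0.60 ± 0.28 not called. Leaving out 1 day at a time gave 3 (without day 4) to 10 member calls (without day 20). In R10, over days 2, 6 and 18, limma called no member and 0% of 15135 genes (8 of 58 members and 2389 genes at an unadjusted p under 0.05). The R10 levels of H2aw were 35.6 and 67.9 CPM at day 2, 14.1 and 84.9 CPM at day 6, and 17.8 and 23 CPM at day 18 in OKMS and OKS.

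**Figure D4:**
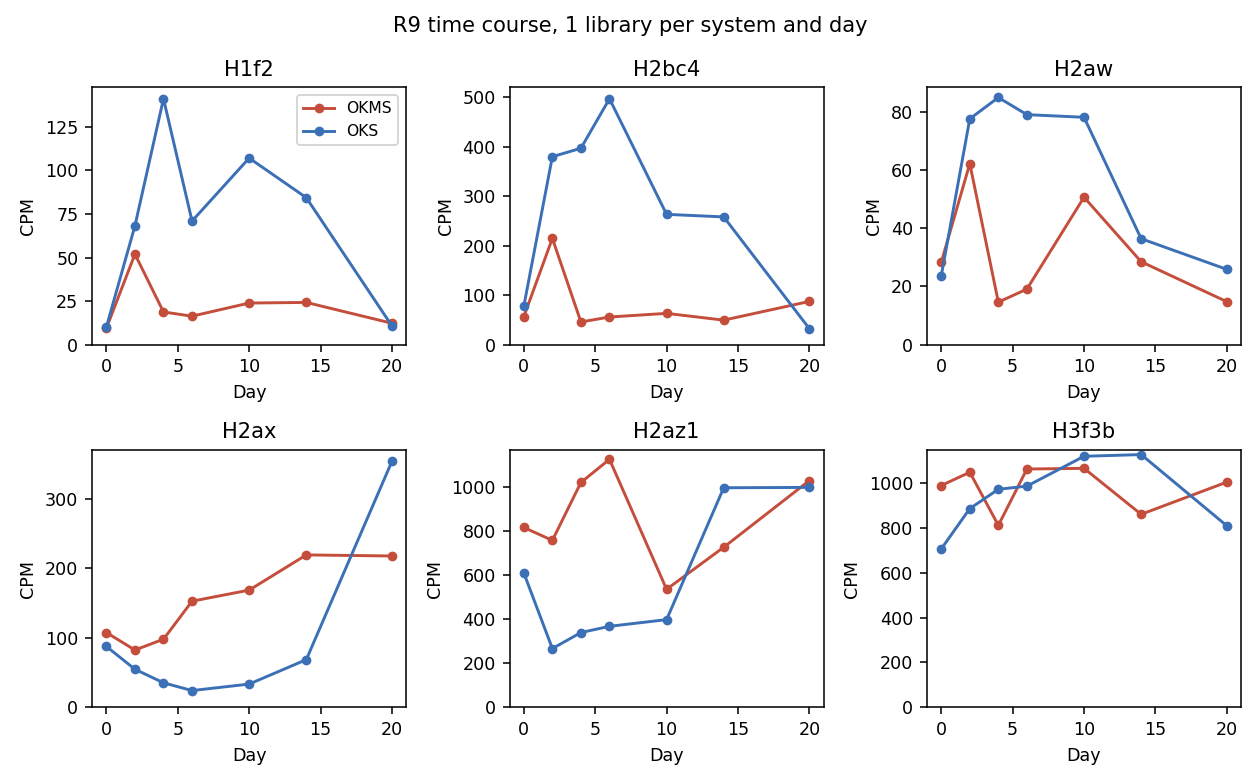
CPM of H1f2, H2bc4, H2aw, H2ax, H2az1 and H3f3b by day in R9, with OKMS in red and OKS in blue, 1 library per point and day 0 the NPC of each line. H1f2, H2bc4 and H2aw lie higher in OKS at days 4 to 14, H2ax and H2az1 lie lower in OKS at days 2 to 6, and H3f3b stays between 707 and 1127 CPM in both lines.

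Changes shared by both lines over the R9 days were not resolved for histone genes. The moderated F test of limma called 0 of 61 members (9 at an unadjusted p under 0.05), beside 10.7% of all genes (5.5% with their largest day difference upwards and 5.24% downwards). By edgeR 7 members were called and by DESeq2 3, with no all-gene share given here for these tools. The day differences furthest from 0 were those of H4c8 (3.41 at day 2, limma adjusted p = 0.16), H3c15 (3.08), H2bc8 (3.04), H2bc12 (-2.66, adjusted p = 0.092), H2bu2 (2.56 at day 20) and H1f2 (2.49, adjusted p = 0.067). Of the S phase genes 1 of 15 was called higher and 4 lower. With 1 library per line and day, 6 residual degrees of freedom per gene were left before moderation.

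Late in reprogramming, cells moved to 2i-LIF had less H1f2, H2aw and H2bu2 than cells kept in FBS-LIF + dox. Over 5 pairs matched on preparation, line and day, 4 of 54 members were called, all lower, beside 12.3% of all genes (5.95% higher and 6.32% lower). With median centring H1f2, H2aw and H2bu2 were lower, H2bc4 was not called, and H3c3 and Macroh2a1 were called higher. H1f2 was at 24.3, 12.3, 10.8, 23.7 and 32.0 CPM in FBS-LIF + dox (R9 day 14 OKMS, day 20 OKMS and day 20 OKS, then R10 day 18 OKMS and OKS) and at 0, 6.45, 3.49, 17.6 and 9.39 CPM in 2i-LIF, lower in 5 of 5 pairs (-1.79 ± 0.51, limma adjusted p = 0.025). H2bu2 was at 6.33, 13.5, 14.4, 26.7 and 8.96 CPM against 2.44, 2.15, 3.49, 3.53 and 4.69 CPM, also lower in 5 of 5 pairs (log2 -1.70).
H2aw was lower in 5 of 5 pairs (28.5, 14.8, 25.9, 17.8 and 23 CPM against 17.1, 7.52, 3.49, 5.29 and 10.9 CPM, log2 -1.35). H2bc4 was at 49.6, 87.4, 32.3, 47.5 and 97.3 CPM against 29.3, 22.6, 39.6, 17.6 and 29.7 CPM (log2 -1.08), lower in 4 of 5 pairs and higher in the day 20 OKS pair. No replacement gene was called without the centring. Within R9 pairs limma called no member (8 at an unadjusted p under 0.05), beside 7.53% of genes, and within R10 pairs 1, H1f4 (-1.62 ± 0.28), beside 1.22%.

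The H3.3 genes H3f3a and H3f3b stayed abundant in all states. Over all libraries, H3f3b ran from 707 to 1127 CPM in R9 and from 739 to 1476 CPM in R10, and H3f3a from 465.8 to 1328 CPM and from 736 to 1551 CPM. H2az1 ran from 124 to 1123 CPM in R9 and from 81.8 to 999 CPM in R10, with the lowest value of each in WT cells in FBS-LIF + dox. H2az2 ran from 188 to 527 CPM in R9 and from 182 to 746 CPM in R10, and H2aj from 114 to 241 CPM and from 157 to 389.6 CPM. Macroh2a2, the second macroH2A gene, ran from 11.1 to 80.3 CPM in R9 and from 21.1 to 76.6 CPM in R10, and was called in none of these comparisons as the authors scaled the data.
In R10 the ESC-NPC log2 differences of H3f3b (0.12), H2az1 (0.05), H2az2 (-0.38), H2aj (-0.63) and H1f10 (-0.08) were not called. H2ax was lowest in WT cells in FBS-LIF + dox (9.90 CPM in R9, 17.6 and 21.4 CPM in R10) and highest among ESC and late factor libraries, at up to 354 CPM in R9 and 499 CPM in R10.

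Macroh2a1 also changed its transcripts. Its gene (chr13:56073619-56136361, minus strand, mm10) holds a pair of alternative exons, which code for different stretches of the protein: one of 91 bases at chr13:56088252-56088342 and one of 100 bases at chr13:56089758-56089857. In the deposited models 6 and 19 transcripts carry them, and the 1 transcript with both was left out. The share of TPM with the 91-base exon, out of TPM with either, was 24.8%, 21.1%, 10.2% and 21.9% in R10 NPC (OKMS, OKS, WT 2, WT 3). In R10 ESC it was 2.83% in O4G replicate 1 and 0% in the other 6 libraries, the unnumbered one included. The means were 0.405% ± 1.07 (SD, n = 7) in ESC and 19.5% ± 6.41 (SD, n = 4) in NPC, a difference of -19.1 percentage points, and the groups did not overlap. The two-sided exact permutation test gave p = 0.00606, the smallest value that 7 libraries against 4 allow. In R9 the means were 0.339% ± 0.480 (SD, n = 2) and 28.5% ± 8.08 (SD, n = 4), with exact permutation p = 0.133, the smallest value that 2 libraries against 4 allow.

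The 91-base exon led in WT cells after 2 days in FBS-LIF + dox, at 76.9% and 95.9% in R10 and 89.8% in R9. In R9 factor cells it was at 36.2% in OKMS and 75.0% in OKS at day 2, 4.16% and 80.3% at day 4, 12.1% and 77.5% at day 6, 13.1% and 77.5% at day 10, 5.55% and 54.2% at day 14, and 0% and 2.36% at day 20. OKS libraries thus lay above OKMS libraries on each of the 6 days, with the narrowest gap at day 20. In R10 the shares were 26.3% and 69.3% at day 2, 0% and 81.8% at day 6 and 0% and 21.9% at day 18 in OKMS and OKS, and 2i-LIF libraries were at 0% to 1.73% in R9 and at 0% and 12.5% in R10. TPM with either exon was 5.30 to 36.8 in R10 and 33.2 to 159 in R9, and the number of reads behind each share is not given in the table.

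**Figure D5:**
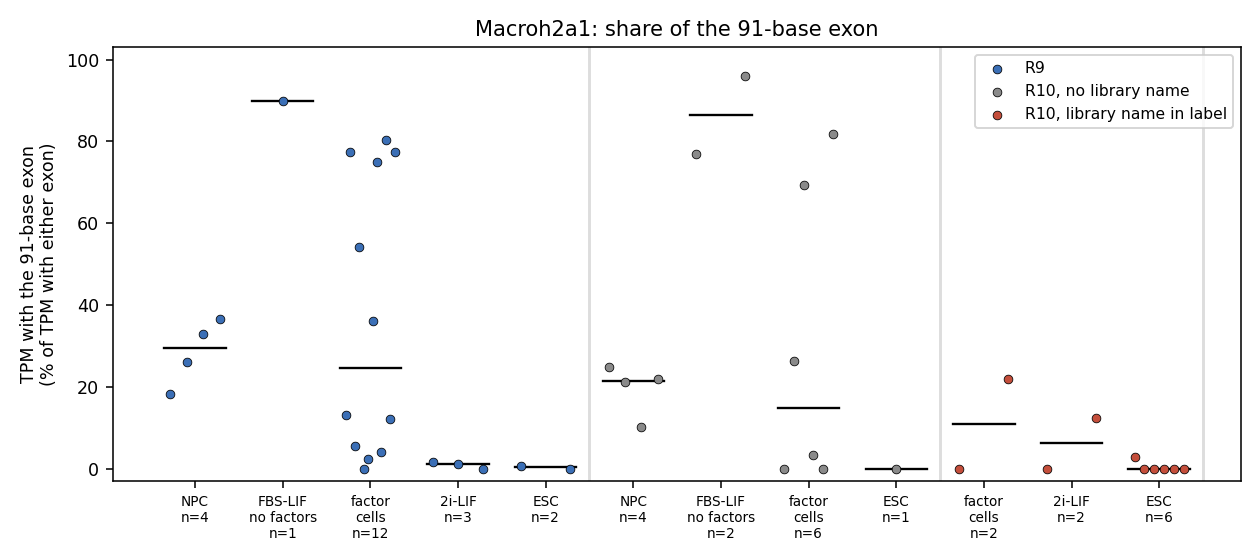
Share of Macroh2a1 TPM with the 91-base exon, in percent of TPM with either alternative exon, in each of the 45 libraries by preparation, R10 library set and cell state; points are libraries and bars are medians. ESC libraries lie at 0% to 2.83%, NPC libraries at 10.2% to 36.7%, and WT cells in FBS-LIF with doxycycline at 76.9% to 95.9%.

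Promoters of the members were taken from RefSeq, from 250 bases before to 50 after the start, for 45 replication-dependent and 11 replacement genes, and searched on both strands. TATAAA was present in 57.8% of the replication-dependent promoters, 1 of 11 replacement promoters and 13.6% of all 32851 promoters. CCAAT was present in 84.4% of the replication-dependent promoters, with 1 of 8 H4 promoters, in 7 of 11 replacement promoters and in 37.4% of all promoters. The octamer ATTTGCAT was found in 6 of 10 H2B and 6 of 13 H2A promoters, against 1.74% of all, and the H1 element AAACACA in 4 of 5 H1 promoters, against 7.18% of all. These are matches of letters; no binding was measured.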

How the data were processed

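The histone genes were compared over 45 nanopore long-read libraries of neural progenitors, reprogramming cells and embryonic stem cells. The gene table holds CPM, normalized by the authors and deposited without counts; the deposited transcript table holds TPM, and the deposited classification table gives lengths and poly(A) motifs, with 1 column in percent. Reads were aligned with minimap2 2.24-r1122 to mm10, per the submitters' processing notes; the annotation of the transcripts carries GENCODE M21 names. Of the gene table, 13 columns that no label matches were not used. CPM steps gave whole reads in 100% of values (tolerance 0.02), so edgeR 4.0.16 and DESeq2 1.42.0 were run on those reads as alternatives.

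The main test was limma 3.58.1 (R 4.3.3) on log2(CPM + 1), with genes of at least 1 CPM in as many libraries as the smaller group, fitted over all genes with Benjamini-Hochberg adjustment. A gene near 0 in a group could pass this filter through the other group, so class counts and medians can hold such genes. A gene was called at an adjusted p under 0.05 and a log2 difference of at least 1 in size; fold changes on this scale understate those of low genes. Single shares were tested by exact permutation. The scripts were tested on simulated data. The ± values are standard errors of the fit or, where marked, SDs, and measure spread between libraries. Floors (3 reads for a count of 0) cover counting error only.

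Members were matched by symbol or former symbol through RefSeq; 28 RefSeq histone genes had no entry in the table, nor did H1foo. H1f1 to H1f5, former Hist1h1 genes, were classed as replication-dependent. Named genes were every called member up to 12 per comparison, otherwise the 6 largest rises and 6 largest falls per class, the highest member of each type and a fixed list; from the pathway list Slbp, Npat, Casp8ap2, Chaf1a, Chaf1b, Asf1b, Nasp, Pcna and the 2 largest differences. A few others (H2ac19, Eri1, Cpsf2 and Mcm3 among them) were named after their values were seen. The members and lists were chosen with earlier results of these data known. Sums by type carry no test. Stem-loops were read from GENCODE transcripts and deposited transcript ends on mm10. Alternatives changed the pseudocount (0.25), the filter (none, 5 CPM), the scaling, the tool, the libraries and the replicate block.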

Additional observations from a re-analysis of the deposited data

Results flagged for a closer look

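In 61 groups of 4 to 10 libraries, the highest or lowest library was compared with its nearest neighbour, and 8 stood apart by Dixon's limit; chance marks about 1 in 20 groups. In 7 of the 8 the library was the R1 stem cell library without an n number among the 7 R10 ESC libraries. It was low for the replication-dependent sums of H1 (99.3 CPM), H2A (91.5 CPM), H2B (41.8 CPM), all types (296 CPM) and all types without Hist1h2ao (285 CPM). It was high for the replacement H2A sum (2496 CPM) and for Macroh2a1 (1002 CPM). The groups share this library, so these are not separate observations. O4G ESC replicate 1 stood apart with a 91-base exon share of 2.83%, the other 6 being at 0%.

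The limma test of the difference between the ESC-NPC contrasts of R10 and R9 called 10 members. For 7 of the 9 replication-dependent ones (all but H1f2 and H4c9) each R9 ESC and NPC library held 0 to 2 reads, too few to show a difference, and the calls carry mainly the R10 levels. The log2 differences of R10 minus R9 were 5.26 for H2ac4, 4.67 for H1f5, 3.80 for H1f3, 3.16 for H1f2, 2.90 for H2ac20, 2.65 for H2bc15, 2.57 for H4c9, 2.39 for H1f1, 1.95 for H4c14 and -2.66 for Macroh2a1. With the unnumbered R1 library as the only R10 stem cell library, none of them was called.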

How the results depend on the processing

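Member counts were within 1.5 times the reported count under 48 of 66 alternatives; of 645 alternatives for single genes 528 kept direction and call, 106 kept direction without the call and 11 changed sign. The cause of these changes was not tested, except that a stricter filter tests fewer genes and leaving libraries out leaves fewer samples. Where a member count below stands without an all-gene share, it shows only how the count moved. For ESC against NPC in R10, the R1 library without an n number gave 5 calls, and the log2 differences changed sign for H1f4 (-0.85), H1f5 (-0.17), H2ac4 (-0.99), H2bc18 (-0.22), H4c8 (-0.27), Hist1h2an (-0.64), Hist1h2ao (0.19) and Macroh2a1 (0.48), as did the R10 minus R9 difference of H2ac4 (-0.15). The difference between preparations in the ESC-NPC contrast gave 5 calls with pseudocount 0.25, 0 with edgeR, 3 with DESeq2 and 0 with that library alone. R9 against R10 gave 9 calls at a 5 CPM filter, 10 without ESC and NPC conditions (H4c8 then at 0.026), 12 without the numbered stem cell libraries and 30 with pseudocount 0.25. FBS-LIF + dox against NPC medium gave 19 at 5 CPM and 7 in R9, where 1 library was set against 2 and the spread came from these 2 NPC libraries alone. The time course gave 1 at 5 CPM, 5 with median centring, 7 with edgeR and 3 with DESeq2. OKMS against OKS gave 5 with edgeR and 0 in R10 (H1f5 then at 0.64), and 2i-LIF against FBS-LIF + dox 0 in R9 pairs and 1 in R10 pairs.

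The log2 ratios of ESC and NPC medians of summed levels moved, with TPM in place of CPM, from -1.93 to -3.28 for H1 in R9, from 0.65 to 1.17 for H3 in R9 and from 0.60 to 1.49 for H2B in R10. For H4 in R10 the ratio went from 1.53 to 1.19, and the ESC and NPC ranges then overlapped. With the R1 library without an n number alone, the R10 ratios were -0.32 for H1, -0.28 for H2A, -0.99 for H2B, 0.32 for H3, 0.14 for H4 and -0.38 for all, against 3.29, 2.79, 0.60, 2.29, 1.53 and 2.64. The exon share difference was -28.2 points in R9 (exact permutation p = 0.133).

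Leaving out 1 library, day or pair at a time gave 31 to 34 calls for ESC against NPC in R10, 7 to 10 in R9, 1 (without R9 ESC R1) to 25 (without the unnumbered R10 R1) for their difference, 13 (without the O4G ESC condition) to 22 for R9 against R10, 6 (without NPC WT replicate 3) to 28 for FBS-LIF + dox, 0 to 1 for the time course, 3 to 10 for OKMS against OKS and 2 (without R10 day 18 OKS) to 5 for 2i-LIF. For the summed levels the ranges were -2.62 to -1.01 for H4 in R9, the one type that moved by more than its spread, and for the exon share -22.2 to -17.3 points (exact permutation p up to 0.0167). Median centring moved the all-gene median from 0.01 to 0.24 for ESC in R10 and from 0.63 to -0.45 for the time course, and the split of all-gene calls from 3452 higher and 3615 lower to 4196 and 3013 for ESC in R10, and from 2193 and 1747 to 2100 and 2278 for FBS-LIF + dox.

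FBS-LIF + dox and NPC WT libraries share replicate numbers 2 and 3; with the number as a replicate block 35 members were called (8 higher, 27 lower) in place of 31, and 5605 genes in place of 3940. Deviations of same-numbered libraries correlated at 0.474 over 2 pairs, and no label states that a number marks a shared culture. Depth limits calls on genes near 1 CPM, where a library of 447990 reads counts fewer than 1 read per CPM.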
